A study of Drosophila melanogaster with 4 samples.

Results

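The 38 genes described here gave a signal well above background in w1118 embryos on every array and in the 8-miR cluster null on none. They were chosen by detection flags among 13926 genes that carried an annotation ID on the array. A gene qualified if at least 1 probe was flagged well above background by the scanner software, on a share of at least 0.5 of its spots, in the w1118 channel of all 4 arrays, and if no probe of the gene was so flagged in any null channel. Odorant, gustatory and ionotropic receptor genes were left out, which removed 2 genes. The 38 made up 0.276% of the 13759 other genes and 0.421% of the 9028 of these with such a w1118 signal. The same rule turned round, for signal only in the null, gave 45 genes (0.327%).

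The study compared 8-miR cluster null embryos, which lack 8 neighbouring microRNA genes of arm 2R, with w1118 embryos, a laboratory strain that carries the white-eye mutation. Per the labels both genotypes shared the w1118 background, eggs were laid for 2 h and aged for 6 h at 25 degrees C, and total RNA came from whole embryos 6 to 8 h after egg laying. Other label fields speak of a miR-8 cluster null and of ectopic mir-3, and the genotype is therefore not described in 1 way. Each of 3 replicates paired 1 null with 1 w1118 extract on a 2-colour array, and replicate 1 was hybridised again with exchanged dyes, which gave 4 arrays. Replicates 2 and 3 had the null in Cy3 only. The RNA was that of whole embryos, so fewer cells of a type and less RNA per cell cannot be told apart.

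The cluster's microRNAs are made in the early zygote and act by lowering the messages they pair with. At this age the embryo has just formed its germ layers, and nerve cells, muscle, gut and epidermis begin to differentiate. A gene with signal in only 1 genotype can be one that is weakly expressed in both, with a level near the array's detection limit. The flag is a threshold and not a proof of absence: 35 of the 38 genes had a null signal that the software called positive and significant on at least 1 array, and 7 had one on all 4.

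Between 58.0% and 65.8% of spots were well above background in the null channels, and between 56.7% and 65.5% in the w1118 channels, with 0 saturated spots. Of 18 marker genes of embryos at this stage, such as twi, wg and pros, all 18 were flagged in both genotypes on every array. Their levels were not all alike. By the limma test used below, 6 were called lower in the null (33.3%, against 26.3% of all genes fitted). Another 3 were called higher (16.7%, against 27.8%). Log2 ratios of null over w1118 ran from -0.57 for l(1)sc to 3.46 for Kr. None of 9 testis and male accessory gland markers was flagged on any array in either genotype (0 of 9). Lists of other cells were not silent. Of 6 adult eye markers, 2 were flagged in the null and 3 in w1118 on all 4 arrays. For 5 hemocyte markers the count was 3 in each genotype. Among those measured, 1 of 3 eye markers was called lower and 1 higher, and 1 of 4 hemocyte markers lower and 2 higher. Which channel was null was taken from the labelled dyes. The 2 arrays of replicate 1 lay on slide 1, and replicates 2 and 3 lay on slide 2.

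All signals below are the scanner's background-subtracted spot brightness in scanner units, given for replicates 1, 2 and 3 and then for the dye-exchanged array of replicate 1. They are not dye-normalized, so they show the data behind each ratio and do not give the fold by themselves. Ratios are log2 of null over w1118 after background correction with an offset of 50 and loess normalisation, as mean ± SD over 3 replicates. Their sign is the reverse of that in the authors' matrix, which holds w1118 over null. The offset pulls the ratios of dim spots towards 0 and narrows their SD. Since the null had only a bound, each fold is given as at least N-fold, the w1118 mean over the higher of the array's lowest null signal well above background and the probe's own signal. For 27 of the 38 genes the bound equals the fitted fold, because the null signal itself was used throughout. Bounds carry no interval. Bounds, ratios and the limma calls are open to dye bias, because 2 replicates had no exchange.

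**Figure D1:**
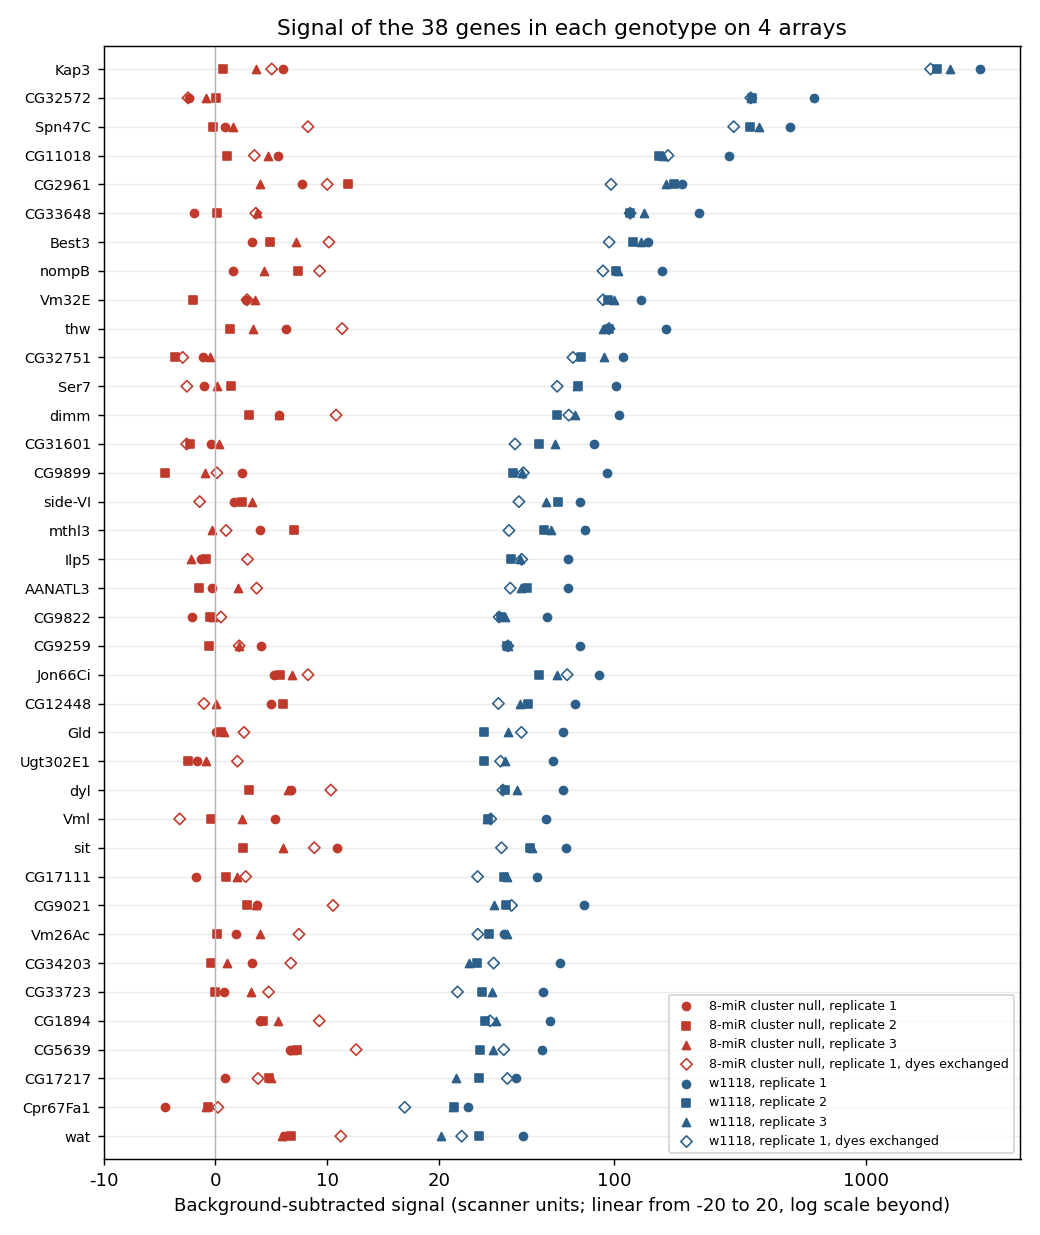
Background-subtracted signal of each of the 38 genes (rows, ordered by mean ratio) in scanner units, on an axis that is linear around 0 and logarithmic beyond. Red marks are the 8-miR cluster null and blue marks w1118, with 1 mark shape per array. The null signals lie between -4.54 and 12.6 and the w1118 signals between 17.0 and 2838, and for all 38 genes the rule separated the genotypes.

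Since the flags used these same signals, the separation is a description of the selection and not a finding. The null signal of the 38 genes ran from -4.54 to 12.6 and the w1118 signal from 17.0 to 2838. In 21 genes the null signal was below 0 on at least 1 array. The ratios ran from -4.93 to -0.34 with a median of -0.70, against 0.01 over all 10133 genes fitted. A ratio of -1 or lower was found for 12 of the 38, a class that held 1.8% of all genes fitted. The bounds ran from 1.26-fold to 30.1-fold with a median of 1.62, and 3 genes were at 5-fold or more.

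Kap3 stood apart from the rest of the 38. It encodes the accessory subunit of kinesin-2, a motor that carries cargo along microtubules in axons and cilia. Its probe gave 6.03, 0.684, 3.60 and 5.04 in the null, against 2838, 1917, 2164 and 1809 in w1118. The null was near background on all 4 arrays while w1118 was bright on each. Its ratio of -4.93 ± 0.12 came with the largest bound of the 38, at least 30.1-fold lower in the null. That value comes from 1 of the gene's 2 probes. The other probe, named for transcript RB, was not flagged in either genotype: it gave 4.29, 0.172, 4.79 and -0.896 in the null, against 8.90, 2.20, 5.26 and 2.54 in w1118, with a ratio of -0.02 ± 0.04. Since that probe measured no signal well above background in either genotype, its ratio says nothing about the difference, and the Kap3 value rests on 1 probe. Among the other kinesin and dynein genes, 1 of 17 measured was called lower and 2 higher (limma, adjusted p under 0.05 over all genes fitted, a call that 26.3% of all genes met as lower and 27.8% as higher), and 14 did not pass.

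A second gene of this kind was nompB, which encodes an intraflagellar transport protein needed to build the cilia of sensory neurons. It gave 1.54, 7.37, 4.38 and 9.33 in the null, against 155, 102, 104 and 90.0 in w1118. The null was positive and significant on all 4 arrays, though not well above background. Its ratio was -1.26 ± 0.11, with a bound of 2.40-fold.

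Proteases and their inhibitors included 3 of the 38. Spn47C, a serpin, gave 0.877, -0.226, 1.56 and 8.28 in the null, against 499, 345, 374 and 298 in w1118. It was the single gene among the 38 with 2 probes flagged in w1118 on all 4 arrays. By the brighter probe the ratio was -2.57 ± 0.07, with a bound of 5.95-fold, and by the other -1.15 ± 0.19, a shared direction that the rule fixes, since both were flagged in w1118 and neither could be flagged in the null. The other probe gave 0.173, 1.22, 2.56 and 2.52 in the null, against 159.2, 76.8, 88.4 and 89.7 in w1118.

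Ser7, a serine protease gene, gave -1.05, 1.36, 0.186 and -2.55 in the null, against 101, 71.3, 71.0 and 59.1 in w1118. Its null signal lay around 0 on all 4 arrays, and the ratio was -1.02 ± 0.06. Jon66Ci, one of the Jonah digestive proteases, gave 5.26, 5.82, 6.85 and 8.29 in the null, against 86.8, 50.3, 58.9 and 64.8 in w1118. Here the null was positive and significant on all 4 arrays though not well above background, with a ratio of -0.68 ± 0.16.

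Eggshell genes gave 3 of the 38. They encode vitelline membrane proteins, which follicle cells of the mother's ovary secrete around the egg. Vm32E had 2.79, -2.03, 3.51 and 2.84 in the null, against 127, 94.1, 99.97 and 90.0 in w1118 (ratio -1.26 ± 0.03, at least 2.39-fold lower in the null). Vml had 5.38, -0.350, 2.39 and -3.19 in the null, against 53.2, 31.5, 31.1 and 32.2 in w1118 (-0.58 ± 0.06). Vm26Ac had 1.89, 0.113, 3.98 and 7.48 in the null, against 36.5, 31.6, 37.4 and 28.6 in w1118 (-0.51 ± 0.08). The rule set the genotypes apart in these 3 as in all of the 38, and Vm32E had the largest difference of the 3.

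Follicle cell markers other than Vm32E were mixed, with more lower than higher. Of 13 markers on the array, 9 besides Vm32E were measured, and 5 of the 9 were called lower in the null (55.6%, against 26.3% of all genes), 1 higher (11.1%, against 27.8%) and 3 neither, with a median ratio of -0.26. Vm26Aa was lower at a ratio of -2.05 ± 0.06 (limma adjusted p = 7.44e-07), Cp15 at -1.10 ± 0.08, Yp2 at -1.06 ± 0.15, Vm26Ab at -0.75 ± 0.16 and Yp1 at -0.26 ± 0.17. Cp18 was called higher at 0.20 ± 0.05 (limma adjusted p = 0.0115), and Cp36 at 0.02 ± 0.18, Vm34Ca at -0.04 ± 0.03 and Yp3 at -0.10 ± 0.07 did not pass. The chorion genes on the list, Cp15, Cp18 and Cp36 among them, thus differed in direction. Cp38 was flagged on no array in either genotype, and Cp16 and Cp19 on no null array and 1 w1118 array each. Without Vm32E, the summed signal of the 12 others, with values below 0 taken as 0 and no dye normalisation, was 482 to 892 in the null channels and 1520.1 to 2460 in the w1118 channels. A wider list of egg shell and yolk genes was less one-sided. Of its 15 genes measured besides Vm32E and Vm26Ac, 6 were called lower (40%, against 26.3% of all genes). Another 4 were called higher (26.7%, against 27.8%), with a median ratio of -0.10. The part of follicle cell RNA in the eggshell results was not tested.

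Genes of the cuticle, of surface lipids and of the apical matrix were close to the detection limit. The rule's threshold lay near them: dyl, a zona pellucida domain protein that shapes the apical surface of epidermal cells, gave 6.76, 2.97, 6.54 and 10.3 in the null, against 62.4, 36.7, 41.0 and 36.0 in w1118 (ratio -0.58 ± 0.02). A second dyl probe was flagged in neither genotype. The fatty acid elongase gene sit gave 10.9, 2.47, 6.07 and 8.85 in the null, against 63.9, 46.1, 47.0 and 35.5 in w1118 (-0.58 ± 0.13).

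Still closer together were Cpr67Fa1, a chitin-binding cuticle protein gene, and wat, a fatty acyl-CoA reductase gene needed to fill the tracheal tubes with gas. Cpr67Fa1 gave -4.54, -0.618, -0.836 and 0.226 in the null, against 26.0, 23.0, 22.8 and 17.0 in w1118. The gene wat gave 6.12, 6.76, 5.99 and 11.2 in the null, against 43.1, 28.9, 20.5 and 24.7 in w1118. Both had a ratio of -0.34 (SD 0.06 and 0.04), the smallest differences among the 38, with bounds of 1.26-fold. Among other cuticle protein genes 15 of 56 measured were called lower (26.8%, close to the 26.3% of all genes) and 20 higher (35.7%, against 27.8%), with a median ratio of 0.05. Osiris genes, which serve cuticle and tracheal development late in embryogenesis, held none of the 38, though Osi5, Osi9 and Osi19 missed the rule by 1 flag. Of the 16 measured, 12 were called lower (75%, against 26.3% of all genes) and 2 higher (12.5%, against 27.8%), with a median of -0.47. Of the 23 on the array, 9 were flagged on no null array. Osi9 and Osi19 were among these and entered the fit through w1118 alone, so their direction follows from the filter. Late embryonic muscle markers were called lower in 5 of 6 (83.3%, against the same 26.3%) and higher in 0, with Mlc1 at -0.87 ± 0.13 (limma adjusted p = 7.05e-05). The part of embryo age in the results for the 38 was not tested.

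Signalling molecules, receptors and neuroendocrine genes made up 5 of the 38. Best3, of the bestrophin chloride channel family, gave 3.27, 4.92, 7.23 and 10.2 in the null, against 135, 118, 127 and 95.2 in w1118 (ratio -1.32 ± 0.01). The basic helix-loop-helix gene dimm, which sets the secretory capacity of neuroendocrine cells, gave 5.69, 3.03, 5.67 and 10.8 in the null, against 104, 59.3, 69.6 and 65.8 in w1118 (-0.87 ± 0.11). For both, the null was highest on the dye-exchanged array, where it was labelled with Cy5.

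Ilp5, an insulin-like peptide made by neurosecretory cells of the brain, gave -1.27, -0.825, -2.20 and 2.88 in the null, against 65.0, 38.7, 42.1 and 42.8 in w1118 (-0.73 ± 0.10). The gene side-VI, of the Sidestep family of immunoglobulin cell-surface proteins, gave 1.63, 2.35, 3.29 and -1.41 in the null, against 72.7, 59.8, 53.5 and 41.7 in w1118 (-0.77 ± 0.06). Only 1 of its 4 probes was flagged on all w1118 arrays: the other 3 had ratios of -0.15 to -0.13 and were flagged in w1118 on 1 array at most. mthl3, a Methuselah-like receptor gene, gave 4.01, 7.06, -0.319 and 0.960 in the null, against 76.1, 52.3, 55.8 and 38.04 in w1118 (-0.77 ± 0.06).

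Enzyme genes with known names added Gld, AANATL3 and Ugt302E1. Gld, the glucose dehydrogenase gene, gave 0.0227, 0.462, 0.730 and 2.56 in the null, against 62.4, 30.4, 37.8 and 42.6 in w1118 (-0.63 ± 0.14). AANATL3, of the arylalkylamine N-acetyltransferase family, had a ratio of -0.71 ± 0.04, and the UDP-glycosyltransferase gene Ugt302E1 one of -0.60 ± 0.11. Null signals of these 3 enzymes stayed between -2.45 and 3.69, and their w1118 signals between 30.2 and 65.3.

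The other 18 genes have an annotation number as their only name or, in the case of thw, no role given here. CG32572 on the X chromosome had the second largest bound of the 38. It was measured by 10 spots per array and gave -2.34, 0.0535, -0.831 and -2.45 in the null, against 622, 353, 349.8 and 349 in w1118. Its null signal was called positive and significant on none of the 4 arrays, its ratio was -2.77 ± 0.26, and it was lower in the null by at least 6.66-fold.

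CG11018 is the next gene on the array beside the deleted cluster, on its right in the gene order of the reference table. It gave 5.59, 1.02, 4.67 and 3.49 in the null, against 284, 149.8, 155 and 163 in w1118 (ratio -1.70 ± 0.24, at least 3.26-fold lower in the null). CG15125, the next array gene on the cluster's left, had a ratio of -0.22 ± 0.05. It gave 0.188, -1.71, 1.03 and 3.24 in the null, against 16.6, 17.7, 14.4 and 4.85 in w1118. It was flagged on 3 w1118 arrays and 0 null arrays and missed the rule by 1 flag. Since it entered the fit through w1118 alone, no p-value is given. Beyond CG11018 the next array gene, hrg, had a ratio of -0.01 ± 0.07 and did not pass (limma adjusted p = 0.882). The nearest others of the 38 on that side were CG34203 and CG9822, the array genes numbered 173 and 186 to the right of the cluster.

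Bounds above 2-fold were also found for CG2961, CG33648, thw and CG32751. CG2961 gave 7.76, 11.8, 3.99 and 10.01 in the null, against 185, 173, 160.1 and 96.8 in w1118 (-1.48 ± 0.11). CG33648 gave -1.94, 0.127, 3.76 and 3.62 in the null, against 217, 115, 131 and 115 in w1118 (-1.47 ± 0.23). The first had a null signal called positive and significant on all 4 arrays, the second on 2.

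In thw the signal was 6.34, 1.28, 3.39 and 11.3 in the null, against 159.6, 95.4, 90.2 and 95.1 in w1118 (-1.23 ± 0.12). CG32751 gave -1.06, -3.62, -0.468 and -2.92 in the null, below 0 on every array, against 108, 73.4, 90.4 and 68.3 in w1118 (-1.16 ± 0.05). The remaining 12 genes of this group, from CG31601 at -0.86 ± 0.06 to CG17217 at -0.41 ± 0.16, had w1118 signals between 23.4 and 93.0.

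**Figure D2:**
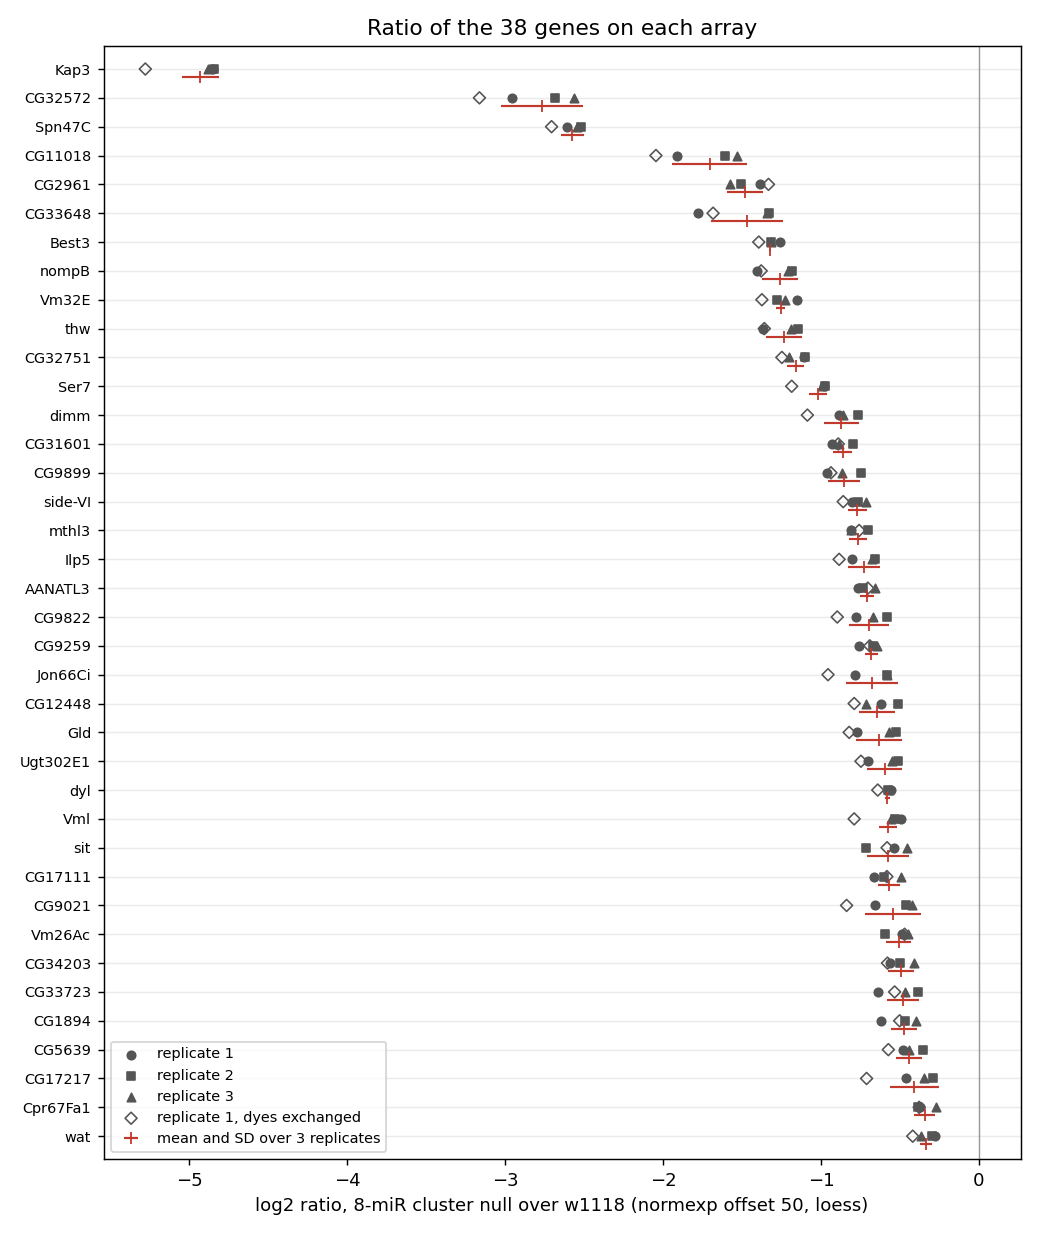
Log2 ratio of null over w1118 for each of the 38 genes (rows) on each array (grey marks, open for the dye-exchanged array), with the mean and SD over 3 replicates in red. Every mark lies below 0, Kap3 is lowest at -4.93, and most genes lie between -1 and -0.3.

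Replicates differed little in these ratios. The SD over 3 replicates ran from 0.0062 to 0.26 with a median of 0.093, and all 38 ratios were below 0 on all 4 arrays, which the rule makes likely. On the dye-exchanged array 25 genes had a more negative ratio and 13 a less negative one than on the other array of the same extracts, with a median difference of -0.07. The median ratio of the 38 was -0.78, -0.69 and -0.67 on the arrays of replicates 1, 2 and 3, and -0.85 on the dye-exchanged array. It was -0.81 within slide 1 and -0.66 within slide 2. The sizes depended on the background correction: with the scanner's processed signals the median was -3.57, and Kap3 was at -8.67 at its lowest.

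Just inside the rule were the genes whose null signal came nearest to the flag, measured as the highest signal over the local background's pixel SD. CG5639 reached 1.97 SD, CG2961 1.79, thw 1.61 and Best3 1.51. CG5639 gave 6.65, 7.33, 6.97 and 12.6 in the null, against 51.5, 29.0, 32.8 and 36.3 in w1118, with a ratio of -0.44 ± 0.08.

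Just outside the rule were 61 genes that missed it by 1 flag, 28 through 1 flagged null channel and 33 through w1118 flagged on 3 arrays. The 4 with the lowest ratios all had w1118 flagged on 4 arrays and the null on 1. CG17974 gave 8.44, 2.16, 5.19 and 19.1 in the null, against 338, 210.1, 228 and 172 in w1118 (-1.93 ± 0.05). CG16743 was at -1.41 ± 0.07, Sdic1 at -1.29 ± 0.02 and TwdlG, a Tweedle cuticle protein gene, at -0.82 ± 0.17. These values lie within the range of the 38, so the edge of the set is one of flags and not of ratios.

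**Figure D3:**
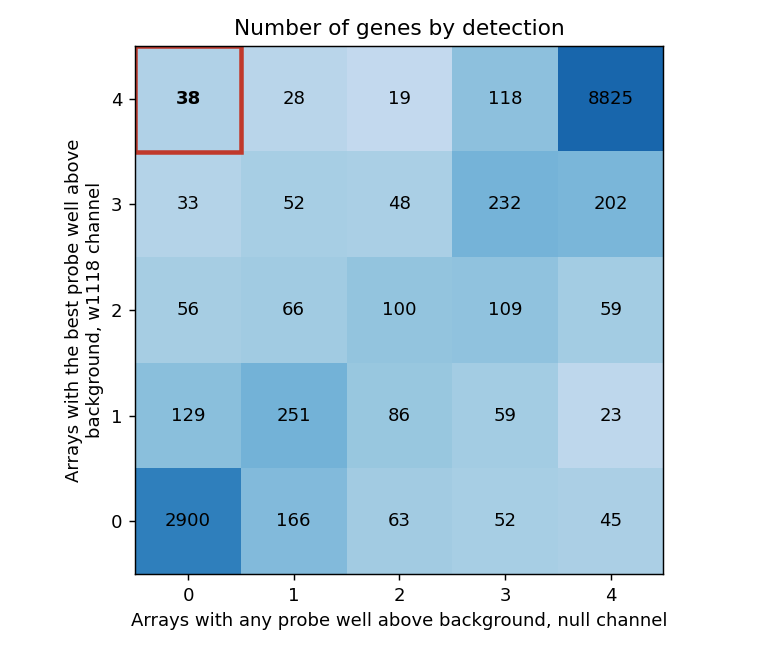
Number of genes by the number of arrays (0 to 4) with a probe well above background in the null (horizontal) and in w1118 (vertical). The outlined cell holds the 38 genes, 8825 genes were detected on all 4 arrays in both genotypes, and 2900 in neither.

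The 38 genes were spread over the genome. Chromosome arm 2L held 12, 3R 9, 2R and X 6 each and 3L 5, while chromosome 4 held 0 of the 38 and 84 genes on the array. Arm 2L held 31.6% of the 38 and 18.2% of the genes considered, and 2R held 15.8% and 20.2%. No pair of the 38 lay next to each other in the gene order of the array. The closest pairs were side-VI and Ugt302E1 with 5 array genes between them, thw and Gld with 6, and CG9021 and Vm26Ac with 9. All 38 were annotated as protein-coding. A single probe on the array measured 32 of the 38 (84.2%), against 69.7% of all genes, so that most rest on 1 probe.

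Genes beside the 38 were not chosen by the rule, and their ratios could be examined, though not wholly apart from it. For each of the 38, the nearest measured gene on either side that was not itself chosen was taken, which gave 75 genes. Of these, 31 were called lower in the null, 13 higher and 31 neither (limma, adjusted p under 0.05 over all 10133 genes fitted). As shares, 41.3% were lower and 17.3% higher, against 26.3% and 27.8% of all genes. The median ratio was -0.09, against 0.01 over all genes. It was -0.07 within slide 1 and -0.13 within slide 2. Some neighbours came close to the rule: CG17974 and vanin-like missed it by 1 flagged null array, and CG15125 and CG15219 by 1 unflagged w1118 array. Each is among the 31 called lower, and CG15125 and CG15219 entered the fit through w1118 alone. Whether the excess of lower neighbours exceeds chance was not tested, and neighbouring genes are not independent of one another.

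Most of these differences were small. At least 2-fold lower were 3 of the 75 (4.0%; 1.8% of all genes), and 1 was at least 2-fold higher (1.87% of all genes). Vm26Aa, beside Vm26Ac in a cluster of vitelline membrane genes, was lowest at -2.05 ± 0.06, and Vm26Ab on the other side of Vm26Ac was at -0.75 ± 0.16 (limma adjusted p = 0.000225). CG17974, next to CG9822, was at -1.93 ± 0.05, and Syt4, a synaptotagmin gene of vesicle release next to Gld, at -1.48 ± 0.11 (limma adjusted p = 4.47e-06). CG43897, next to Ilp5, was at -0.95 ± 0.15.

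On the higher side, ppk13, a pickpocket sodium channel gene beside CG9259, was at 1.32 ± 0.09 (limma adjusted p = 6.02e-06) and CG6583 at 0.85 ± 0.05. Boh2 beside Vm32E was at 0.64 ± 0.10. The cuticle gene Cpr67Fa2, the neighbour and relative of Cpr67Fa1, was called higher at 0.42 ± 0.04 (limma adjusted p = 0.00041). Both neighbours were called lower for 11 of the 38, 1 neighbour for 9 and none for 18. The same count around other genes was not made, so it is not known whether these numbers are unusual. Without the eggshell genes 29 of 73 neighbours were lower (39.7%, against 26.3% of all genes) and 13 higher (17.8%, against 27.8%).

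**Figure D4:**
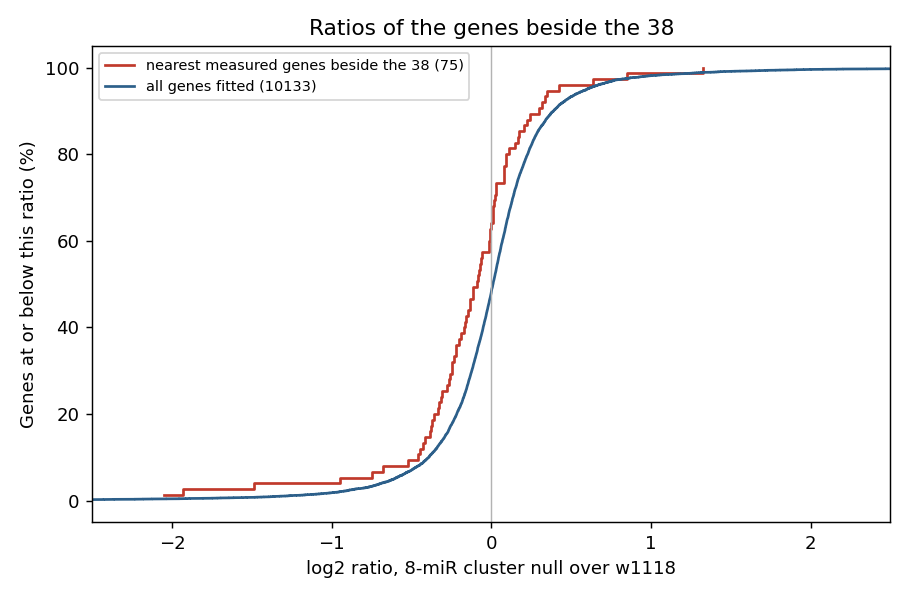
Cumulative share of genes (vertical, percent) at or below a given log2 ratio of null over w1118 (horizontal), for the 75 nearest measured genes beside the 38 (red) and all 10133 genes fitted (blue). The red curve lies left of the blue one around 0, with medians of -0.09 and 0.01, and both curves meet at high ratios.

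Relatives of the 38 were also not chosen by the rule, though Cpr65Eb, which was called lower, missed it by 1 flagged null array. Among measured relatives, Cpr30B, Cpr65Au, Cpr50Cb and Ugt37A3 were flagged in the null alone. Genes that share a symbol stem with one of them numbered 177 on the array, of which 99 were measured. In the null 32 of the 99 were called lower (32.3%), 26 higher (26.3%) and 41 neither, with a median of -0.02, so their shares lay near those of all genes. Most larger families went both ways: serpin relatives had 4 of 17 lower and 8 higher, UDP-glycosyltransferases 6 of 22 lower and 6 higher, and Cpr cuticle genes 10 of 29 lower and 8 higher. Calls went one way in 4 small groups: 2 of 3 vitelline membrane relatives, 2 of 5 AANATL genes and the 1 Ser gene measured were lower, and 1 of 2 bestrophin genes was higher.

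The lowest relatives besides Vm26Aa were Ugt50B3 at -4.31 ± 0.05 (limma adjusted p = 8.31e-08), Cpr49Ag at -1.33 ± 0.27 and the insulin-like peptide gene Ilp6 at -1.17 ± 0.08. Highest were Ugt37A2 at 1.42 ± 0.18 and Spn27A, a serpin that restrains the Toll pathway, at 1.39 ± 0.10 (limma adjusted p = 5.19e-06). Cpr57A followed at 1.17 ± 0.06 and Ugt37A3 at 1.17 ± 0.14. Ugt37A3 was flagged on all 4 null arrays and on no w1118 array, the opposite of Ugt302E1.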

How the data were processed

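Total RNA of embryos was measured on 4 Agilent 2-colour arrays of 32162 probes. Per the file headers, the spots were read by the authors in Agilent Feature Extraction 10.1.1.1. Of the deposited intensity columns, those taken were median spot and background brightness, background-subtracted signal and processed signal, the last after dye normalization by the scanner software. The deposited log10 ratio (Cy5 over Cy3) was read but not used. The authors' deposited log2 matrix followed the log2 ratio of processed signals, as w1118 over null, with a slope of 1.00, which settles scale and direction. Its medians were -0.137, 0.071, 0.128 and -0.041, and no further centring was seen.

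Background in the median signals was corrected by normexp with offset 50 (limma 3.58.1, R 4.3.3), and ratios were normalized by loess within arrays, with control and outlier spots at weight 0. Spots of a probe were averaged without outliers, and the 2 arrays of replicate 1 were averaged first. For channel levels and bounds, Aquantile normalization followed. Probes well above background in 1 genotype in at least 2 of 3 replicates entered the fit, each gene by its brightest probe. Each gene's mean ratio was tested with lmFit and eBayes, and p-values were adjusted by Benjamini-Hochberg over 10133 genes. The fit had no dye term, and replicates 2 and 3 had the null in Cy3 only. Ratios, calls and adjusted p-values of all genes are therefore open to dye bias. With replicate 1 from its dye-exchanged array alone 17.0% of all genes were called lower, and from its unswapped array alone 31.9%. No p-value is given for the 38 genes, since their flags come from the same contrast.

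Of 13926 annotation IDs, 13380 matched a table of the Release 6 assembly. Because the probes were designed on an older build, it served for names, arms and gene order alone. Per the design text the replicates were isolated independently. The precision is limited by their number. On simulated data with 10133 genes the fit recovered 88% of genes with a log2 change of -1, 78% at -0.5, 72% at 0.5 and 96% at 1, at 50 genes each.

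The 38 genes and all lists were chosen with earlier results of these data known. Named by rule were the 12 largest bounds, the 8 highest w1118 signals, genes with 2 flagged probes, adjacent genes and up to 4 of each family. So were the 4 highest null signals over the background SD, the 4 nearest misses by ratio, and the 4 largest changes each way among neighbours and relatives. Other named genes and the role groups were picked after their values were seen. Alternatives covered flags, background, normalization, probes, dyes, slides and each replicate left out. Promoter motifs were planned and not analysed here.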

Additional observations from a re-analysis of the deposited data

Results flagged for a closer look

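Of the 38 ratios compared over 4 arrays, 3 had 1 array far from the other three, and chance gives about 1 in 20. The dye-exchanged array gave -5.28 for Kap3, against -4.88 to -4.85 on the others. For Ser7 the same array gave -1.18, against -0.99 to -0.98. Replicate 3 gave -0.27 for Cpr67Fa1, against -0.39 to -0.37 on the others.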

How the results depend on the processing

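The number of genes with signal only in w1118 depended on the flag rule. It was 71 with w1118 flagged on at least 3 arrays, 82 without the dye-exchanged array and 41 to 96 with each replicate left out (96 without replicate 1, 71 without replicate 2). Each of these held all 38, as it had to, since each only loosens the rule. With the weaker flag for a positive and significant signal it was 17, of which 3 were among the 38. With a signal over 5 times the background SD it was 32, of which 12 were among the 38. The median ratio of the 38 was -2.07 with offset 0, -3.57 with processed signals and also with the authors' matrix, -0.997 without background correction and -0.81 within slide 1. It ran from -0.74 to -0.66 with each replicate left out. The median bound was 4.07-fold with offset 0 and 1.58 to 1.66 without each replicate. None of the 38 ratios changed sign under the processing alternatives run, which the rule makes likely, since it chose the genes from the same spots. All 38 changed in size with offset 0, with processed signals, with the authors' matrix and without background correction. Neighbours called lower numbered 21 to 36 over the alternatives, and the share of all genes called lower moved as well. With each replicate left out the count ran from 23 (30.7%; 16.9% of all genes, without replicate 3) to 35 (46.7%; 28.7%, without replicate 1). It was 36 with replicate 1 from its unswapped array alone (48%; 31.9% of all genes). With channels unpaired, that is with no replicate block, it was 21 of 75 (28.0%; 17.8% of all genes). Relatives called lower numbered 23 to 36 over the alternatives. With each replicate left out they ran from 25 (25.3%; 16.9% of all genes, without replicate 3) to 34 (34.3%; 28.7%, without replicate 1). They were 23 of 99 (23.2%; 17.8% of all genes) with channels unpaired. With replicate 1 from its unswapped array alone they were 36 (36.4%; 31.9% of all genes). Within slide 1 no test was possible, as it held 1 replicate. Signals of the 38 in the null lay near background, which limits every ratio to a bound.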

Other observations

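Several gene families that held none of the 38 genes, or 1 or 2 of them, were counted with the same test (limma, adjusted p under 0.05 over all genes fitted, met as lower in the null by 26.3% and as higher by 27.8% of all genes). Muscle structure genes had 15 of 25 measured called lower in the null and 4 higher, with a median log2 ratio of -0.33. Of 15 heat shock genes measured, 7 were lower and 4 higher (median -0.20). Among 26 antimicrobial and immune genes, 11 were lower and 7 higher (median -0.09). Serine protease genes other than Ser7 and Jon66Ci had 7 of 18 lower and 2 higher (median -0.06).

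Other families were split between the directions. Cytochrome P450 genes had 16 of 48 lower and 20 higher, glutathione S-transferases 11 of 30 lower and 11 higher, and odorant-binding proteins 7 of 28 lower and 8 higher. Mucin genes had 1 of 8 lower and 4 higher (median 0.20), and potassium, pickpocket and TRP channel genes 5 of 23 lower and 9 higher (median 0.04). These counts describe the lists and were not compared with chance.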
